A study of Homo sapiens with 6 samples.

Results

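Condensins are ring-shaped complexes that fold chromosomes into compact rods in mitosis. SMC2 and SMC4 form the ATPase core of both human forms, condensin I is completed by NCAPD2, NCAPG and NCAPH, and condensin II by NCAPD3, NCAPG2 and NCAPH2. TOP2A, DNA topoisomerase II alpha, passes one duplex through another to untangle sister chromatids and is a target of anthracycline chemotherapy. MKI67 encodes Ki-67, which coats mitotic chromosomes and is scored by immunostaining in breast tumours as a marker of proliferating cells. Transcripts of several of them, TOP2A and MKI67 among them, peak late in the cell cycle and are low in cells that have left it.

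The rows of these 10 genes were found by name among the 22794 genes of the series, and 10 of 10 were present. RNA with poly(A) tails was sequenced from CAL-51, an established human breast carcinoma line, after transfection of a plasmid with a p27-mVenus reporter and sorting on p27 expression. p27, encoded by CDKN1B, is a cyclin-dependent kinase inhibitor that restrains entry into S phase. There were 3 libraries of p27+ cells and 3 libraries of p27- cells, and all groups share the line, the transfection and the sort. Separate cultures are not stated for the libraries. The p-values therefore reflect scatter among 3 libraries a group, some or all of which may be technical. In the limma fits much of that scatter is drawn from all genes tested (prior of 34.6 degrees of freedom). The p-value of a gene thus does not measure the spread of its own libraries alone. No group kept from the transfection is analysed here, and a response to the plasmid cannot be told apart from p27 state. Whether cells without the plasmid fell into the p27- group is not given in the sample titles.

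The libraries held 23297719 to 26735554 reads assigned to genes in p27+ cells and 22216934 to 28609257 in p27- cells. CDKN1B mRNA itself was lower in the libraries labelled p27+, at 1295 ± 75.4 normalized counts, against 1659 ± 153 in the libraries labelled p27- (SD, n = 3 each; limma, adjusted p = 6.8e-05), a call lost in the FPKM table (limma, adjusted p = 0.069). The sort used the reporter plasmid, and reads from it, where counted, cannot be told apart from those of the gene. The labelled cell type was checked against its markers. The keratin gene KRT8 averaged 86970 normalized counts in p27+ and 57174 in p27- cells, whereas the adherens junction gene CDH1 (4.55 and 0) and the luminal factor gene GATA3 (4.36 and 3.90) were near 0. The 8 epithelial markers summed to 144878 to 150454 in p27+ and 93502 to 95088 in p27- libraries, and 5 of 6 tested rose and 1 fell. The 4 mesenchymal markers summed to 2988 to 3127 in p27+ and 3503 to 3884 in p27- libraries, and 2 of 3 tested fell. The 3 endothelial markers listed summed to 4366 to 4668 in p27+ and 2753 to 2874 in p27- libraries, and both tested rose, while PECAM1 was near 0 (3.32 and 2.97). Leukocyte markers (2 of 6 listed, 1 of 2 tested rose) summed to 75.8 to 128 and 45.6 to 97.0, and fibroblast markers (3 of 5 listed, 2 of 2 tested rose) to 179 to 256 and 70.1 to 103, in p27+ and p27- libraries. The part of these shifts in the results was not tested.

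Promoter sequences of 4 of the genes are shown because the members moved together and these 4 hold the CHR element, alone or with CCAAT boxes. The CHR element (TTTGAA) is bound by the MuvB complexes that repress late cell cycle genes in quiescence and activate them in G2, and the CCAAT box (CCAAT) is bound by NF-Y. Capitals mark these motifs, on either strand, in the 250 bases before and 50 bases after the RefSeq gene start (GRCh38.p14), written 5′ to 3′ on the gene's strand. MKI67 lies at chr10:128126374-128126673 (minus strand), TOP2A at chr17:40417847-40418146 (minus strand), NCAPD2 at chr12:6493852-6494151 (plus strand) and NCAPG at chr4:17810729-17811028 (plus strand).
MKI67: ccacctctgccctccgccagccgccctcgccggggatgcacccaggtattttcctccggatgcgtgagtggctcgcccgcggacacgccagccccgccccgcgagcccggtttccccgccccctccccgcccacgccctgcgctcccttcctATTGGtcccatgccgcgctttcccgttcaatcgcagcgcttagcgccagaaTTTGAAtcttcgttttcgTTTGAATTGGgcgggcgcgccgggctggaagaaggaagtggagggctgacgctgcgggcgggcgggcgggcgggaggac
TOP2A: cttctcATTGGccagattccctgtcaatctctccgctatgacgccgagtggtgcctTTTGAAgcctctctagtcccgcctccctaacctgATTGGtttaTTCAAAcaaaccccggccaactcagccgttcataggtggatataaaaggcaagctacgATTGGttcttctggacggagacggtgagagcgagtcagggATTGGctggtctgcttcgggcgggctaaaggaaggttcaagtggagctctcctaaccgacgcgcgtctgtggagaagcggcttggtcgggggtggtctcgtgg
NCAPD2: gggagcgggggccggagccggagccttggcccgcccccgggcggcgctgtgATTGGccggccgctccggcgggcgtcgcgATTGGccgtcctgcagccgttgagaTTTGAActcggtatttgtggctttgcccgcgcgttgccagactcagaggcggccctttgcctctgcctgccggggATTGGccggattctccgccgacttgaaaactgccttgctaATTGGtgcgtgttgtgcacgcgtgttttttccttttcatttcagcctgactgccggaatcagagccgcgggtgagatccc
NCAPG: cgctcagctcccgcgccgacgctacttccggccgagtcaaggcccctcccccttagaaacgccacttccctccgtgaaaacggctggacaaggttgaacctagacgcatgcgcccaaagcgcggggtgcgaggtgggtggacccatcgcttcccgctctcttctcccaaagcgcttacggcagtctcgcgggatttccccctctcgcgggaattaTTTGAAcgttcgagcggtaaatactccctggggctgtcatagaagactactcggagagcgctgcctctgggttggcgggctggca
The MKI67 promoter held the CHR letters at 47 and 29 bases before the start, counted to the upstream end of a match, and the CCAAT letters on the reverse strand at 98 and 24 bases, and the second CHR match shared 1 base with a CCAAT match. TOP2A held CHR letters at 194 bases and, on the reverse strand, at 151 bases before the start, among 4 CCAAT matches. NCAPD2 also held 4 CCAAT matches and 1 CHR match, at 145 bases. NCAPG held a lone CHR match at 35 bases and no CCAAT match.

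Over the 9 genes with an entry, which together have 12 listed starts, 8 starts held TTTGAA, against 15.2% of all 35116 promoters. CCAAT was in 5 of the 12 starts, against 34.6% of all promoters. The E2F letters searched (TTTGGCGC, TTTCCCGC, TTTGCCGC or TTTCGCGC) were in 1 start, of NCAPD3, against 3.31%. NCAPH held CCAAT but not TTTGAA, and NCAPG2 held its TTTGAA 36 bases after the start. NCAPH2 had no entry. A match is a run of letters and not a bound site, and SMC2, SMC4 and NCAPD3 each held TTTGAA at 1 of 2 starts.

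**Figure D1:**
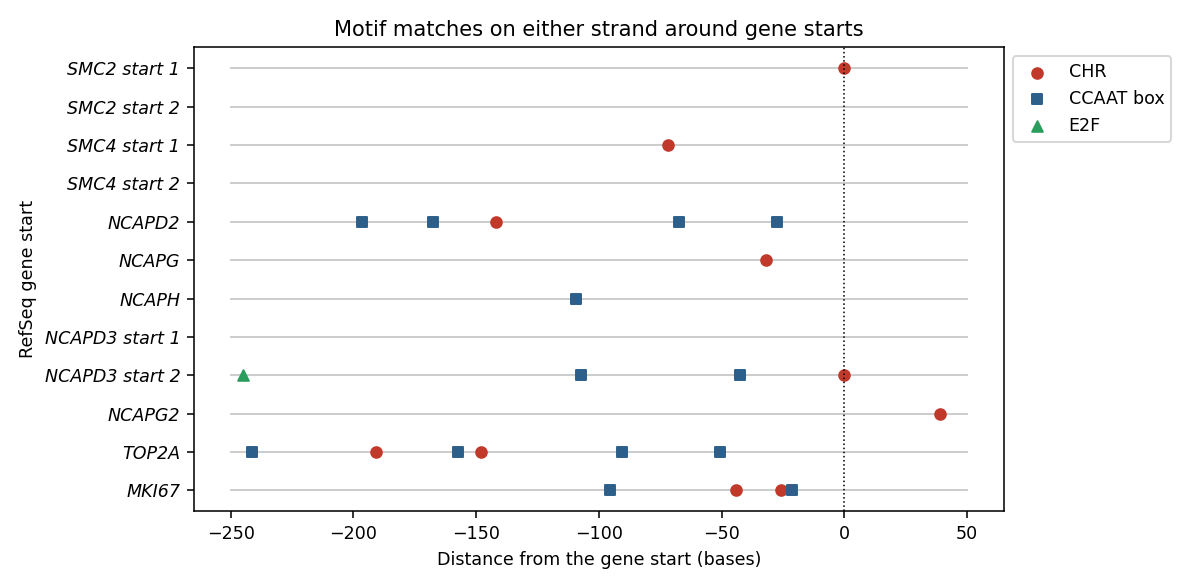
Positions of the CHR, CCAAT box and E2F letters around each RefSeq gene start, on either strand, in bases from the start (dotted line), with each symbol at the centre of its match. CHR letters (circles) occur at 8 of 12 starts, and CCAAT boxes (squares) are most numerous in TOP2A and NCAPD2, with 4 each.

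The 10 genes were lower in p27+ cells without exception, and together they took 0.132% ± 0.00248 of all reads in p27+ libraries, against 0.343% ± 0.00512 in p27- libraries (SD, n = 3 each). Of 10 genes tested, 10 fell (limma, Benjamini-Hochberg adjusted p of 8e-17 or less), against 27.1% of the 15950 genes tested that fell. The groups did not overlap for any of the 10, where 29.1% of all genes had no overlap in that direction, and each fell at least 2-fold, as did 2.9% of all genes. Log2 fold changes are p27+ minus p27- on the scale of log2(normalized count + 1). They ran from -1.78 for MKI67 to -1.05 for NCAPD2, with a median of -1.52, against a median of 0.03 over all genes tested. Normalized counts are the authors' read counts divided by a size factor per library. Under the 19 alternatives 10 of 10 fell too, where 18.7% to 35.6% of all genes fell. The share of decreases among all called genes was 51.5%, but 36.8% with scaling to the library total and 40.6% in the FPKM table. In bulk RNA, fewer cycling cells and less of these transcripts per cell cannot be told apart.

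**Figure D2:**
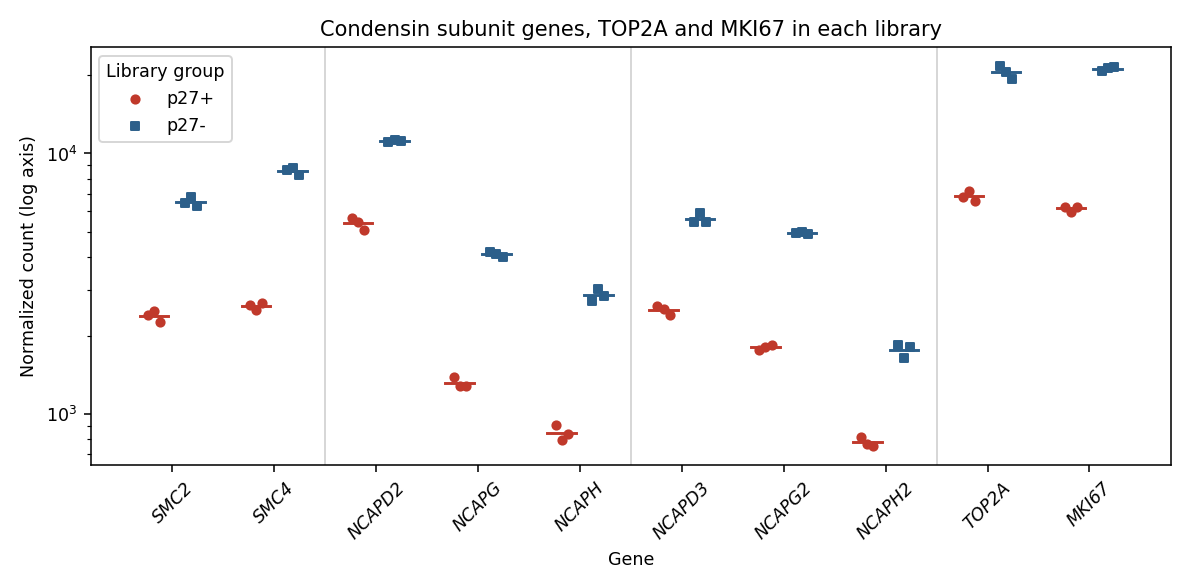
Normalized counts (log axis) of each gene in each library, with p27+ libraries as circles, p27- libraries as squares and bars at the group means. The highest p27+ library of a gene lies at 30.2% to 51.3% of its lowest p27- library.

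MKI67 (ENSG00000148773, chromosome 10, 128096659 to 128126423) had 6248, 5957 and 6254 normalized counts in p27+ libraries, against 20687, 21375 and 21418 in p27- libraries. All 3 p27+ libraries lay far below all 3 p27- libraries, and the spread within groups was small. It was 3.44-fold lower, with a log2 fold change of -1.78 ± 0.03 (SE; limma, adjusted p = 4.5e-34). Its fitted decrease ranked 90th among the genes tested, with 0.558% of them ahead of it.

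TOP2A (ENSG00000131747, chromosome 17, 40388525 to 40417896) had 6801, 7196 and 6599 normalized counts in p27+ libraries, against 21599, 20551 and 19316 in p27- libraries. The groups were again well apart, with p27- replicate 3 the lowest of its group. The gene was 2.98-fold lower, with a log2 fold change of -1.58 ± 0.04 (SE; limma, adjusted p = 4.9e-31). Its paralog TOP2B, which acts in resting cells too and is not tied to mitosis, went the other way. TOP2B had 12818, 12209 and 12241 normalized counts in p27+ libraries, against 10052, 10368 and 9602 in p27- libraries, and the groups did not overlap. It rose by 0.31 ± 0.04 (limma, adjusted p = 5.6e-10), and its estimate ran from 0.28 to 0.50 over the 19 alternatives. Per length, TOP2A stood at 46.4 ± 2.30 FPKM and TOP2B at 28.7 ± 0.578 FPKM in p27+ cells. In p27- cells TOP2A stood at 126 ± 6.81 and TOP2B at 21.1 ± 0.763 FPKM (SD, n = 3 each). In normalized counts, however, TOP2B stood above TOP2A in every p27+ library. The gene length behind the FPKM values of TOP2B was not compared with a transcript, and the order in p27+ cells may rest on that length.

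SMC2 and SMC4, the core shared by both condensins, fell as well. SMC2 (ENSG00000136824, chromosome 9, 104094260 to 104141419) had 2389, 2490 and 2250 normalized counts in p27+ libraries, against 6457, 6804 and 6301 in p27- libraries. SMC4 (ENSG00000113810, chromosome 3, 160399274 to 160434954) had 2610, 2506 and 2665 in p27+ libraries, against 8675, 8773 and 8275 in p27- libraries. Both genes were separated by group in every library. SMC2 changed by -1.46 ± 0.05 (limma, adjusted p = 5.1e-26) and SMC4 by -1.72 ± 0.04 (limma, adjusted p = 7.2e-30).

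Of the condensin I subunits, NCAPG and NCAPH had decreases of like size and NCAPD2 a smaller one. NCAPH (ENSG00000121152, chromosome 2, 96335766 to 96377091), the kleisin that closes the ring, had 908, 796 and 837 normalized counts in p27+ libraries, against 2726, 3015 and 2831 in p27- libraries. NCAPG (ENSG00000109805, chromosome 4, 17810979 to 17844865), a HEAT-repeat subunit, had 1388, 1284 and 1276 in p27+ libraries, against 4194, 4104 and 4006 in p27- libraries. NCAPD2 (ENSG00000010292, chromosome 12, 6493356 to 6531955), the other HEAT-repeat subunit, had 5657, 5465 and 5084 in p27+ libraries, against 11024, 11225 and 11165 in p27- libraries. In each gene the 3 p27+ libraries were the 3 lowest. The log2 fold changes were -1.75 ± 0.07 for NCAPH, -1.64 ± 0.06 for NCAPG and -1.05 ± 0.04 for NCAPD2 (limma, adjusted p = 8.6e-24 or less). NCAPD2 had more than a 2-fold decrease with the authors' size factors, but not with upper-quartile rescaling (-0.99), scaling to the library total (-0.91), the FPKM table (-0.91) or quantile normalization (-0.86). The FPKM table and the library total share the same relative depth per library and are not separate checks.

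The condensin II subunits, which sit in the nucleus through interphase, fell too. NCAPG2 (ENSG00000146918, chromosome 7, 158631169 to 158704804), the counterpart of NCAPG, had 1759, 1809 and 1840 normalized counts in p27+ libraries, against 4972, 5001 and 4906 in p27- libraries. NCAPD3 (ENSG00000151503, chromosome 11, 134150113 to 134225504), the counterpart of NCAPD2, had 2605, 2519 and 2396 in p27+ libraries, against 5450, 5891 and 5438 in p27- libraries. The kleisin gene NCAPH2 (ENSG00000025770, chromosome 22, 50508224 to 50524780) had 817, 767 and 751 in p27+ libraries, against 1841, 1644 and 1812 in p27- libraries. NCAPH2 had the lowest counts of the 10 genes and the widest error, and its groups still did not overlap. The log2 fold changes were -1.46 ± 0.05 for NCAPG2, -1.16 ± 0.05 for NCAPD3 and -1.18 ± 0.08 for NCAPH2 (limma, adjusted p = 8e-17 or less). Condensin I and II are known to act at different times in mitosis, and their subunits had decreases of -1.75 to -1.05 and -1.46 to -1.16.

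**Figure D3:**
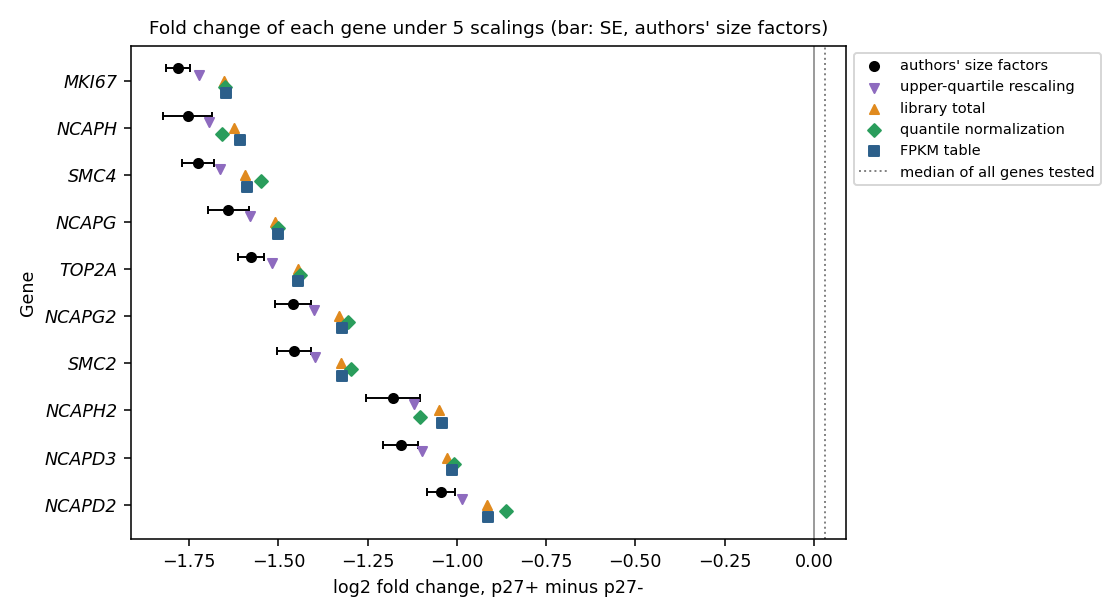
Log2 fold change (p27+ minus p27-) of each gene under 5 scalings, with the SE drawn for the authors' size factors and the median of all genes tested as a dotted line. The FPKM table and the library total share the same relative depth per library. With the authors' size factors MKI67 has the largest decrease (-1.78) and NCAPD2 the smallest (-1.05), while with quantile normalization NCAPH (-1.66) is just ahead of MKI67 (-1.65).

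Ratios within a library do not depend on scaling between libraries, and 6 such ratios were compared between groups. The ratios are of normalized counts and measure a difference in change, not a difference in level between genes. The log2 ratio of NCAPH to NCAPH2 was 0.15, 0.05 and 0.16 in p27+ libraries, against 0.57, 0.87 and 0.64 in p27- libraries. That of NCAPG to NCAPG2 was -0.34, -0.49 and -0.53 in p27+ libraries, against -0.25, -0.29 and -0.29 in p27- libraries. That of NCAPD2 to NCAPD3 was 1.12, 1.12 and 1.08 in p27+ libraries, against 1.02, 0.93 and 1.04 in p27- libraries. The first of these ratios was lower in p27+ cells (difference -0.57), as was the second (-0.18), whereas the third was higher by 0.11. The 3 pairs of counterparts thus differed in direction.

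The ratio of SMC4 to SMC2 was 0.13, 0.01 and 0.24 in p27+ libraries, against 0.43, 0.37 and 0.39 in p27- libraries, a difference of -0.27. The ratio of MKI67 to TOP2A differed by -0.21, at -0.16 ± 0.10 in p27+ cells and 0.05 ± 0.11 in p27- cells (SD of log2 ratios, n = 3 each). The ratio of TOP2A to TOP2B had the widest gap, at -0.86 ± 0.08 in p27+ cells and 1.03 ± 0.06 in p27- cells, a difference of -1.89. None of the 6 ratios overlapped between groups, but MKI67 to TOP2A came close, at -0.08 in p27+ replicate 3 and -0.06 in p27- replicate 1. How many ratios of other gene pairs do not overlap was not counted. By exact permutation (two-sided) each ratio gave p = 0.1, and 0.1 again after Benjamini-Hochberg adjustment over the 6. That is the smallest p that 3 libraries a group allow, so no ratio could pass 0.05.

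**Figure D4:**
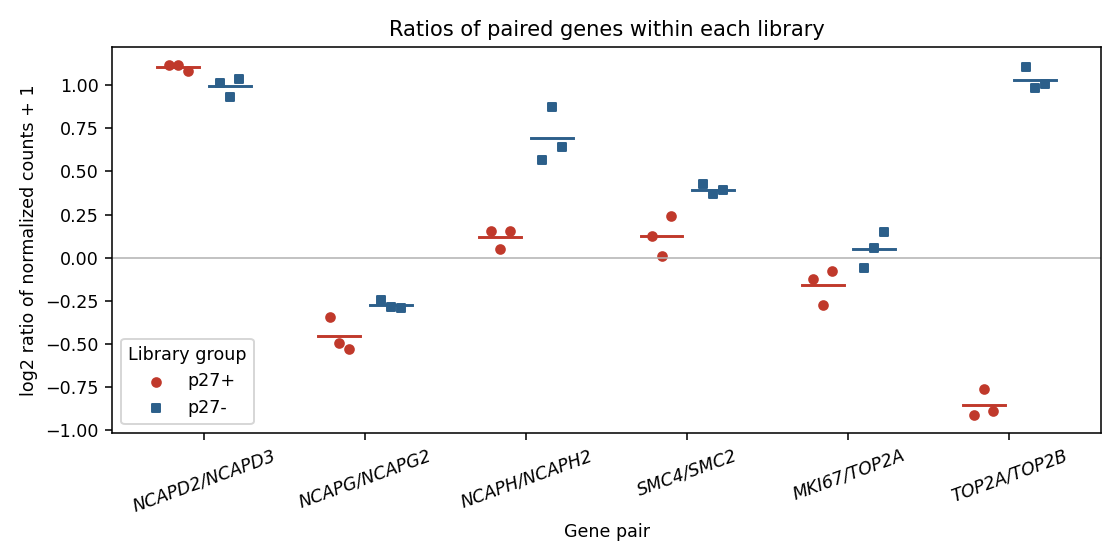
Log2 ratio of normalized counts + 1 for 6 gene pairs in each library, with p27+ libraries as circles, p27- libraries as squares and bars at the group means. NCAPH/NCAPH2 is lower in p27+ libraries (0.12 against 0.69 on average), NCAPD2/NCAPD3 is slightly higher (1.11 against 0.99), and TOP2A/TOP2B is lower (-0.86 against 1.03), which on counts does not compare the levels of the genes.

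Levels between genes can be set side by side only per length. In FPKM, TOP2A (46.4), NCAPD2 (35.9) and MKI67 (20.6) led in p27+ cells, and the lowest were NCAPD3 (5.77) and NCAPH (5.57), which overlapped each other. In p27- cells TOP2A (126), NCAPD2 (67.7) and MKI67 (64.8) led too, and NCAPH2 (15.6) and NCAPD3 (11.8) came last. SMC2 (15.8) stood above SMC4 (13.7) in p27+ cells without overlap, while SMC4 (41.3) and SMC2 (39.6) overlapped in p27- cells. The kleisin genes traded places as well, with NCAPH (5.57) below NCAPH2 (7.51) in p27+ cells and NCAPH (17.2) above NCAPH2 (15.6) in p27- cells, in both cases without overlap.

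Part of that order rested on the gene length behind the FPKM values. For NCAPD3 that length was 18698 bases, 3.69 times the 5061 bases of its principal transcript in GENCODE 29, and for NCAPH and NCAPH2 it was 2.37 and 2.19 times. For NCAPG2 it was 1.80 times, for SMC4 1.49 times, for NCAPD2 1.17 times, and for MKI67, TOP2A, SMC2 and NCAPG 1.01 to 1.11 times. Per kilobase of the principal transcript, NCAPD3 had 495 ± 20.7 normalized counts in p27+ cells and 1105 ± 51.0 in p27- cells, and so stood beside MKI67 (485) and SMC4 (474) in p27+ cells and beside SMC2 (1088) in p27- cells, overlapping each of them (SD, n = 3 each). The order of the core genes turned in p27+ cells on this scale, with SMC4 above SMC2 without overlap (474 and 397). In p27- cells SMC4, already higher on average in FPKM, stood above SMC2 without overlap (1567 and 1088). NCAPG2, below SMC2 in FPKM, stood above it on this scale, at 456 in p27+ cells and 1253 in p27- cells. TOP2A (1192 in p27+ cells and 3558 in p27- cells) and NCAPD2 (974 and 2008) led on this scale too. The genes at the low end were then NCAPH (307) and NCAPG (282) in p27+ cells, and NCAPG (880) and NCAPH2 (867) in p27- cells, and each pair overlapped.

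Other listed genes lie at the place of 6 of the 10, and the strand setting of the counting is not given in the sources used here. VPS26B, on the strand opposite NCAPD3 with 834 shared bases, had 1897 ± 114 normalized counts in p27+ cells and 2017 ± 132 in p27- cells. MRPL51, opposite NCAPD2 with 486 shared bases, had 2742 ± 82.0 in p27+ cells and 3617 ± 127 in p27- cells (SD, n = 3 each). LCORL, opposite NCAPG, averaged 20.9% of the counts of NCAPG, and TRIM59 and IFT80, opposite SMC4, averaged 4.44% and 6.14% of those of SMC4. The changes of these neighbours were smaller than those of the members, from -0.62 for TRIM59 to -0.09 for VPS26B. The genes at the place of TOP2A (a Y RNA) and NCAPH2 (SCO2) were near 0. MKI67, SMC2, NCAPH and NCAPG2 shared their place with no listed gene.

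Genes that steer condensins on mitotic chromosomes were also mostly lower. Of 14 tested, 13 fell and 1 rose, with a median log2 fold change of -1.44, against 27.1% of all genes that fell, 25.5% that rose and a median of 0.03. PLK1, a mitotic kinase that phosphorylates condensin II, changed by -1.86 ± 0.05 (1447 ± 35.6 normalized counts in p27+ and 5257 ± 102 in p27- cells). CCNB1, the cyclin partner of CDK1, changed by -1.68 ± 0.04, the chromokinesin gene KIF4A, whose product binds condensin I, by -1.58 ± 0.05, and BIRC5, a subunit of the chromosomal passenger complex, by -1.46 ± 0.05. AKAP8L, a paralog of AKAP8, rose by 0.37 ± 0.08 (1075 ± 11.9 in p27+ and 833 ± 51.9 in p27- cells; limma, adjusted p = 2e-04). AKAP8, which encodes an anchor protein that recruits condensin, passed narrowly (-0.19 ± 0.07; limma, adjusted p = 0.019) and lost its call in 8 of 19 alternatives, among them those without p27+ replicate 1 (-0.15), p27- replicate 2 (-0.17) and p27- replicate 3 (-0.17).

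Other topoisomerases and partners of TOP2 were a mixed group. Of 12 tested, 7 fell, 1 (TOP2B) rose and 4 (TOP3B, TDP2, ZNF451 and PIAS4) did not pass, with a median of -0.42. Of all genes tested, 27.1% fell and 25.5% rose. ERCC6L, which encodes the PICH translocase of ultrafine anaphase bridges, changed by -1.77 ± 0.08 (616 ± 61.8 normalized counts in p27+ and 2093 ± 83.6 in p27- cells). BLM, the helicase found on the same bridges, changed by -1.47 ± 0.09, and its partner gene RMI1 by -0.80 ± 0.08. ZNF451 rose with quantile normalization (0.17) and with scaling to the library total (0.17), where 2 genes of the list rose.

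Partners of Ki-67 and proteins of the chromosome periphery had smaller fitted decreases than MKI67 itself. Of 12 tested, 12 fell, against 27.1% of all genes, with a median of -0.61 and a range of -0.99 to -0.19. The nucleolar genes NCL (-0.86 ± 0.02), NPM1 (-0.86 ± 0.03) and FBL (-0.99 ± 0.05) and the phosphatase subunit gene PPP1CC (-0.70 ± 0.04) had the smallest p. NIFK, whose product binds the forkhead-associated domain of Ki-67, was at 902 ± 58.8 normalized counts in p27+ and 1031 ± 33.0 in p27- cells. Its change of -0.19 ± 0.08 passed narrowly (limma, adjusted p = 0.043) and was lost in 12 of 19 alternatives, over which it ran from -0.23 to -0.06. The 12 include leaving out each library other than p27+ replicate 1 (-0.21 to -0.14).

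The SMC genes of other complexes were mostly lower too. Of 11 tested genes of cohesin, SMC5/6 and SMCHD1, 9 fell and 2 (SMC1B and NSMCE3) did not pass, with a median of -0.83. The share of all genes that fell was 27.1%. SMC3 changed by -1.19 ± 0.05 and SMC1A by -0.85 ± 0.03, which are the ATPases of cohesin, the ring that holds sister chromatids together. SMCHD1, a silencing factor of the inactive X, changed by -0.90 ± 0.05, and NSMCE4A, of the SMC5/6 complex, by -0.83 ± 0.09. SMC1B, the meiotic form, was nearly silent, at 10.3 ± 8.20 normalized counts in p27+ and 25.8 ± 8.37 in p27- cells (limma, adjusted p = 0.068), and it passed without p27+ replicate 2 (-2.06) and with quantile normalization (-1.94).

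Genes scored beside MKI67 in the proliferation part of the PAM50 breast tumour panel were lower as well. BIRC5 and CCNB1 stand both here and among the condensin regulators. Of 10 tested, 10 fell, against 27.1% of all genes, with a median of -1.72 and a range of -1.93 to -0.91. RRM2, the small subunit of ribonucleotide reductase, changed by -1.84 ± 0.04 (3552 ± 107 normalized counts in p27+ and 12759 ± 383 in p27- cells), the anaphase activator gene CDC20 by -1.79 ± 0.04 and the abscission gene CEP55 by -1.87 ± 0.05. TYMS, which makes thymidylate, had the smallest decrease of the 10 (-0.91 ± 0.07).

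**Figure D5:**
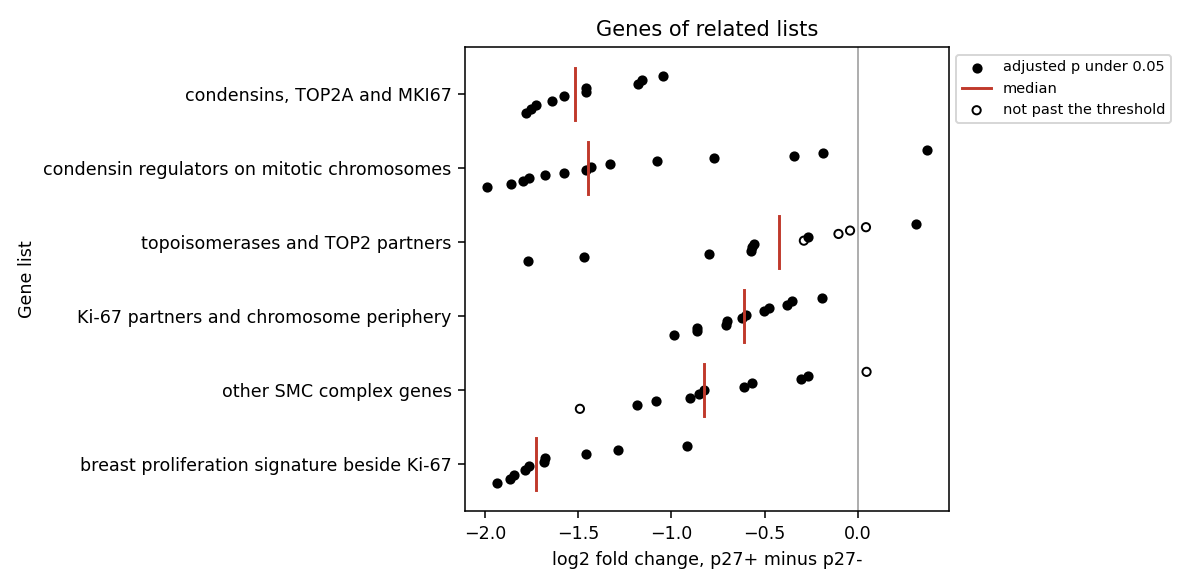
Log2 fold change (p27+ minus p27-) of each gene in 6 lists, with filled points past an adjusted p of 0.05, open points not past it and red bars at the medians. The medians are -1.52 for the 10 genes described here, -1.44 for condensin regulators, -0.42 for topoisomerases, -0.61 for Ki-67 partners, -0.83 for other SMC genes and -1.72 for the proliferation panel.

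The genes most like a member over the 6 libraries were found by Euclidean distance between log2 values centred on their own mean, among 12112 other genes whose normalized counts averaged 50 or more. Nearest to MKI67 were CDC20 (distance 0.071), the kinetochore gene NDC80 (0.079) and SMC4 (0.113). Nearest to TOP2A were the centrosomal kinase gene NEK2 (0.088), the kinetochore scaffold gene KNL1 (0.121) and the kinesin gene KIF23 (0.123). The condensin I kleisin gene NCAPH lay nearest to NDC80 (0.068), the helicase gene PIF1 (0.114) and MKI67 (0.130). Its condensin II counterpart NCAPH2 lay nearest to H2AX (0.064), a histone variant gene, PCLAF (0.077), which encodes a PCNA-binding factor, and the replication licensing gene CDC6 (0.102). The 3 neighbours of NCAPH2 changed by -1.17, -1.22 and -1.22, and those of NCAPH by -1.76, -1.72 and -1.78. The distances did not split the subunits by complex. NCAPH2 lay about as near to NCAPD2 of condensin I (0.223) as to NCAPD3 of condensin II (0.222), and farther from NCAPG2 of condensin II (0.394). NCAPG (0.579) and NCAPH (0.743) of condensin I were farther still. The distance holds both the size of the change and the scatter of the libraries, and with 2 groups of 3 it rests mainly on the size.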

How the data were processed

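The labels' protocols give a stranded poly(A) kit. The submitters' processing notes name STAR, featureCounts, DESeq2 and build hg38, and the sources used here give neither an annotation nor a strand setting. One deposited table holds a size-factor scaled signal (normalized counts) and the other FPKM, both from the authors, as the file headers and values show. Whole multiples of 1 step per library made up 100% of the normalized counts (tolerance 1e-06). The reads recovered from them numbered 800 to 24273 per member and library.

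Genes averaging 10 or more (15950, with 10 of 10 members) were tested with limma 3.58.1 (R 4.3.3, trended prior, group only, two-sided) on the log2 of the deposited normalized count + 1. P-values were Benjamini-Hochberg adjusted over all of them, with a threshold of 0.05, and the script was tested on simulated data. Alternatives were pseudocounts of 0.5 and 5, no minimum or a minimum of 50, quantile, upper-quartile and library-total scaling, log2(FPKM + 0.1) with a minimum of 0.5, no trended prior, a replicate block, edgeR 4.0.16, DESeq2 1.42.0 and each library left out. Centring on the median gene and levels per kilobase of the GENCODE 29 principal transcript were added after the data were seen. GENCODE 29 differs from the files at some gene ends.

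The members and lists were chosen with earlier results of these data known. Besides the members, TOP2B and CDKN1B, named genes are up to 4 of each list with the smallest p (one such gene is not reported here), genes called against the direction of their list, and the 3 nearest to MKI67, TOP2A, NCAPH and NCAPH2. Genes that did not pass or passed narrowly, TYMS, markers, and neighbours sharing a member's place were chosen after their values were seen. Promoters are RefSeq's (GRCh38.p14). Within groups, library pairs had a chi-square per degree of freedom of 5.14 to 6.27, so none was a duplicate.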

Additional observations from a re-analysis of the deposited data

How the results depend on the processing

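The 10 members fell under each of the 19 alternatives, with an adjusted p of at most 0.00041, and the 6 ratios kept their direction with FPKM values, without a pseudocount and without each library (NCAPH/NCAPH2 from -0.64 to -0.48, NCAPD2/NCAPD3 from 0.08 to 0.13). The number of genes called lower was 2832 of 14195 tested in the FPKM table, against 4318 of 15950, and the cause was not tested. The relative depth behind the FPKM values equalled the relative library total in each library. The share of decreases among called genes was 51.5%, 36.8% with scaling to the library total (3114 lower, 5343 higher) and 40.6% in the FPKM table (2832 lower, 4145 higher). Under library-total scaling the median of all genes shifted by 0.13. The higher members among topoisomerases numbered 2 with quantile normalization and 2 with scaling to the library total, against 1, and the cause was not tested. With scaling to the library total 12 condensin regulators, 11 Ki-67 partners and 7 other SMC genes fell. Of the genes that did not pass, TDP2, PIAS4, TOP3B and NSMCE3 changed sign. TDP2 was at 0.068 with quantile normalization, 0.017 with upper-quartile rescaling, 0.088 with scaling to the library total and 0.087 in the FPKM table, and PIAS4 at 0.025 with scaling to the library total and 0.025 in the FPKM table. Leaving out 1 library gave -1.03 to 0.36 for TOP3B, -0.085 to 0.026 for TDP2 and -0.057 to 0.11 for NSMCE3. Same-numbered libraries were not paired by the data, with correlations of their deviations of -0.00051 to 0.011, and 2 of 6 libraries correlated best with their own number. The replicate block gave 4330 lower and 4065 higher genes and changed no member's call. Depth does not limit the members (800 reads or more), whereas TOP3B had 4 to 29 reads a library.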
